A study of Mus musculus with 8 samples.

Results

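Genes of the tonicity response were examined in mouse aortic vascular smooth muscle cells given an adenovirus meant to raise NFAT5. The set holds 10 genes of the 24704 measured, taken by name from a list of osmotic stress targets of NFAT5, and each was found on the array as 1 probe set keyed by its Entrez gene identifier. They are the osmolyte and amino acid transporter genes Slc5a3, Slc6a6, Slc6a12 and Slc38a2, the phospholipase gene Pnpla6, the water channel genes Aqp1 and Aqp5, the chaperone genes Hspa4l and Hspa1b, and the kinase gene Sgk1. The rule itself uses no measured value, though the list was drawn up with earlier results of these data known.

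Cultured cells received the virus for 24 h and then cholesterol at 10 µg/ml for 72 h before total RNA was hybridised to Affymetrix arrays. The 4 control arrays carry the virus titled AdPl and the 4 others the virus titled AdN5, labelled NFAT5 overexpression. Virus and cholesterol were thus common to both groups, and neither uninfected cells nor cells without cholesterol are among the samples. The sources used here give neither the promoter of the virus nor the mouse strain or age, and they name no hypertonic medium or other change of tonicity. The labels do not say whether replicates were separate cultures, so p-values measure only the spread between these arrays, which may be technical.

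NFAT5, also named TonEBP, is the transcription factor of the response to hypertonicity. When the surrounding fluid becomes hypertonic, water leaves the cell and NFAT5 binds tonicity enhancers (TonE) near its target genes. Those genes let the cell take up or make small organic osmolytes such as myo-inositol, betaine, taurine and neutral amino acids, which restore cell volume without the harm done by high salt, and others encode chaperones that protect proteins. In arterial smooth muscle NFAT5 has also been studied for its response to stretch and to growth stimuli.

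To show what such an enhancer looks like, the stretch before the first transcript start of Slc6a12, the gene for the betaine transporter, is printed 5′ to 3′ with the match to the TonE consensus in capitals (RefSeq, GRCm38.p6, chr6:121342324-121342573, plus strand).
Slc6a12: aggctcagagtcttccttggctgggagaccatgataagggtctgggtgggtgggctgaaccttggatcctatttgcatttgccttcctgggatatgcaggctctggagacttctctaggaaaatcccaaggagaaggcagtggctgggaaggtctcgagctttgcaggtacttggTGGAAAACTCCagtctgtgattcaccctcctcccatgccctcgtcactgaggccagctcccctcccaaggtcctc
Short stretches in Sgk1 and Pnpla6 hold related letters, and in these the capitals mark the TonE core TGGAAA, or its complement, for Sgk1 and the whole consensus on the minus strand for Pnpla6 (chr8:3515459-3515488, chr10:21882067-21882096 and chr10:21993715-21993744, plus strand, same build).
Pnpla6: ctgaatggtACGAGTTTCCAtcgaccgagc
Sgk1 first start: ccttgctttctcTTTCCAtttacctttctg
Sgk1 later start: tcggagattagtTGGAAAaaaaagtgaaat

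The windows searched ran from 250 bases before to 50 bases after each transcript start, on both strands, and 9 of the 10 members had at least 1 (Slc6a6 had 0). Of their 20 windows 2 held the TonE consensus, in Slc6a12 and Pnpla6, against 4.96% of the 32851 windows of all genes. The core TGGAAA, which lies within the consensus, was in 5 member windows, of Slc6a12, Pnpla6 and Sgk1, against 21.4% of all windows. In Slc6a12 the match lay at bases -75 to -65 from the start. These are matches of letters and not sites of binding, and enhancers farther away were not searched.

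Nfat5 itself was checked first. Its log2 values were 7.06, 7.22, 7.11 and 7.25 in the control arrays and 7.06, 6.95, 6.98 and 6.88 in the arrays labelled NFAT5. The second group was thus not higher, with a difference of -0.19 ± 0.078 on the log2 scale (SE from limma, adjusted p = 0.360). This probe set did not show the rise that the label names, and its difference was not called. The groups are therefore called control and labelled NFAT5 in what follows, and every direction is drawn from the labels. The sources used here do not say where its probes lie, and whether they read a viral transcript was not tested.

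No member of the set was called different between the groups. The criterion for a call was a limma p under 0.05 after Benjamini-Hochberg adjustment over all 24704 genes, which 0 of the 10 members and 0.777% of all genes met. At an unadjusted limma p under 0.05 there were 2 members, Sgk1 and Slc38a2, against 12.5% of all genes. The same 2 members were the ones whose arrays did not overlap between the groups, Sgk1 higher and Slc38a2 lower in the arrays labelled NFAT5, against 8.78% of all genes. The differences of the 10 members were above 0 for 5 and below 0 for 5, with a median of 0.040 and a median size of 0.14, while the medians over all genes were 0.0042 and 0.10. In RNA from a whole culture, fewer cells of a type and less RNA per cell cannot be told apart in such values.

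**Figure D1:**
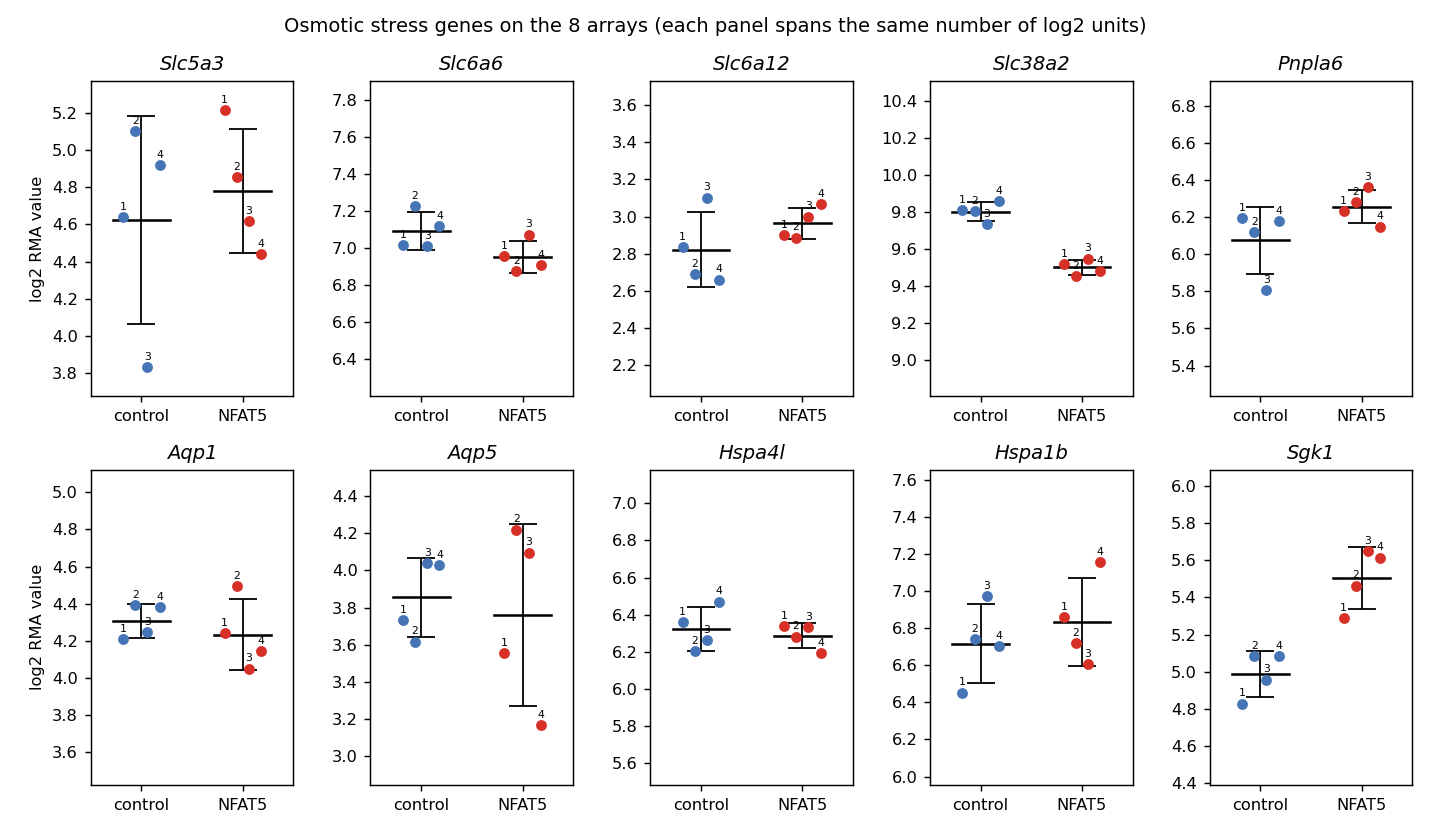
Log2 RMA value (vertical axis) of each member on the 8 arrays; points are arrays with their replicate number, black lines the group means and bars the SD over 4 arrays, and all panels span the same number of log2 units. The groups stand apart for Slc38a2 and Sgk1 and overlap in the other 8 panels.

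The transporters that bring in organic osmolytes came first. Slc5a3 encodes SMIT, the sodium-dependent carrier of myo-inositol and one of the best known NFAT5 targets. Its log2 values were 4.64, 5.10, 3.83 and 4.92 in the control arrays and 5.21, 4.85, 4.62 and 4.44 in the arrays labelled NFAT5. Control replicate 3 was the lowest of all 8 arrays and NFAT5 replicate 1 the highest, and the groups overlapped. The difference of 0.16 ± 0.27 was smaller than the SD in either group (0.56 and 0.34; adjusted p = 0.870; exact two-sided permutation p = 0.686). Without control replicate 3 the difference turned to -0.11 (adjusted p = 0.874), so no direction can be given.

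Slc6a6 encodes TauT, the taurine transporter. It read 7.01, 7.23, 7.01 and 7.12 in the control arrays and 6.96, 6.87, 7.07 and 6.91 in the others. All but replicate 3 of the arrays labelled NFAT5 were below every control array. At -0.14 ± 0.083 the difference did not pass (adjusted p = 0.545; exact permutation p = 0.114).

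Slc6a12 encodes BGT1, the betaine and GABA transporter whose promoter is shown above. Values were 2.83, 2.69, 3.10 and 2.66 against 2.90, 2.89, 3.00 and 3.07. Control replicates 1, 2 and 4 were the lowest arrays, and control replicate 3 was the highest. The level was below that of the median gene (3.73 on the log2 scale), the only member for which this was so. RMA draws differences of such dim probe sets toward 0, so the difference of 0.14 ± 0.11 (adjusted p = 0.654; exact permutation p = 0.257) may be understated. It was 0.24 without control replicate 3 (adjusted p = 0.336) and 0.088 without control replicate 4.

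Slc38a2 encodes SNAT2, a carrier of small neutral amino acids, and was the steadiest member. It read 9.81, 9.81, 9.73 and 9.86 in the control arrays, and 9.52, 9.46, 9.55 and 9.48 in the arrays labelled NFAT5. Every array labelled NFAT5 lay below every control array. The means were 9.80 ± 0.051 and 9.50 ± 0.041 (SD, n = 4), so the gap was several times the spread. The level in the arrays labelled NFAT5 was 0.812 of that in the control arrays, with a 95% interval from 0.730 to 0.903. The log2 difference of -0.30 ± 0.068 missed the threshold over all genes (adjusted p = 0.102; exact permutation p = 0.0286, the smallest that 4 against 4 allows). A difference at least this large in either direction was found for 8.59% of all genes. Slc38a2 passed in 2 alternatives, with an adjusted p of 0.0206 over the 12352 genes above the median level (4.02% called there) and of 0.000427 when limma let the variance follow the level and used robust estimation (3.16% called). It did not pass over the genes above the lower quartile (0.0585), with array weights (0.0921) or in the 8 fits with 1 array left out (0.140 to 0.249). In the same arrays 9 of 11 fibroblast or adventitial markers were below 0 (median -0.17), while 51.0% of all genes were above 0. Ly6c1 was the lowest of these markers at -1.24. Of 10 smooth muscle markers 5 were below 0 and 5 above (median 0.0058), and all 12 macrophage markers were above 0. The mean of the fibroblast or adventitial markers ranged from 6.16 to 6.19 in the control arrays and from 5.73 to 5.97 in the others. Their part in the Slc38a2 values was not tested.

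The wider list of organic osmolyte transporters held 14 measured genes, these 4 and 10 others. Of the 14 genes 1 was called, lower in the arrays labelled NFAT5, against 0.777% of all genes, and 13 were not. That gene was Slc6a9, which encodes the glycine transporter GlyT1. Slc6a9 read 7.02, 6.98, 6.87 and 7.03 in the control arrays and 6.07, 6.38, 6.16 and 5.82 in the others, with no overlap. It fell by 0.87 ± 0.11 on the log2 scale (adjusted p = 0.0126), in the arrays where the fibroblast markers were lower, whose part was not tested, and stayed under the threshold in 5 of the 8 fits that each dropped 1 array (highest adjusted p 0.0556). At the other end was the imino acid transporter gene Slc6a20a at 0.25 (adjusted p = 0.656). The list had a median of 0.033, with 8 genes above 0 and 6 below, beside 0.0042 for all genes.

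Pnpla6 encodes neuropathy target esterase, a phospholipase that releases glycerophosphocholine, another organic osmolyte. Its values were 6.20, 6.12, 5.81 and 6.18 against 6.23, 6.28, 6.36 and 6.15 in the arrays labelled NFAT5. All but replicate 4 of the arrays labelled NFAT5 lay above every control array, and control replicate 3 was the lowest array. The difference was 0.18 ± 0.10 (adjusted p = 0.520; exact permutation p = 0.0857), and 0.093 without control replicate 3. Among the 12 measured genes of osmolyte synthesis and breakdown 0 were called, and the median was 0.021. Pnpla6 had the highest value of that list. Chka, the choline kinase gene, had the lowest at -0.26 ± 0.079 (adjusted p = 0.208), with groups that did not overlap. The aldose reductase gene that makes sorbitol is not analysed here.

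**Figure D2:**
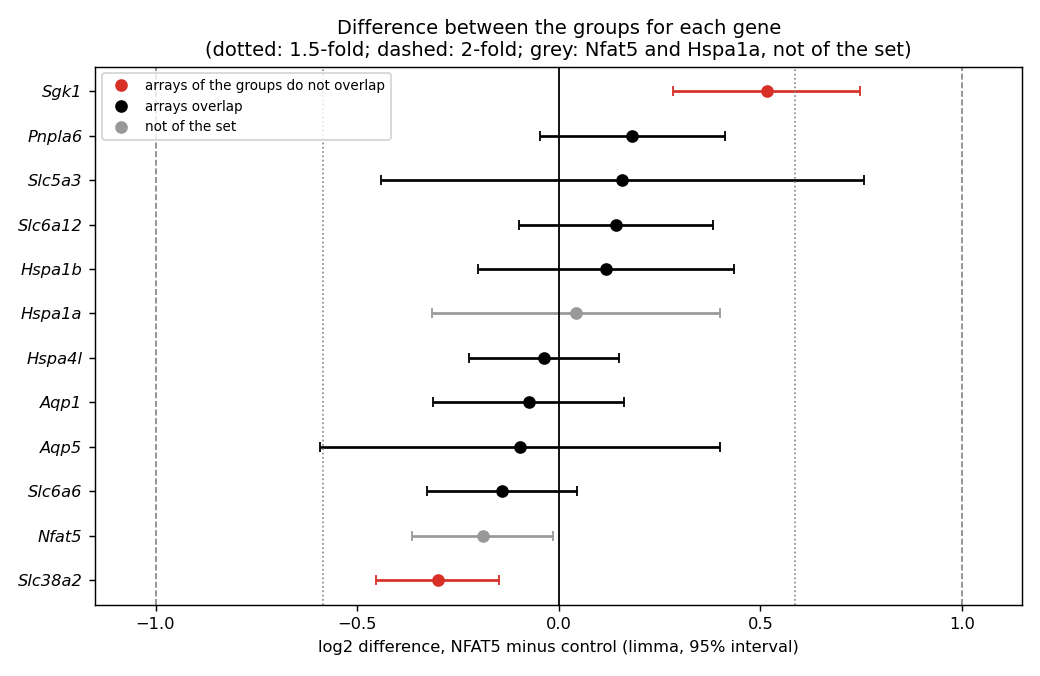
Log2 difference between the arrays labelled NFAT5 and the control arrays (horizontal axis) with its 95% interval from limma, for the 10 members and, in grey, Nfat5 and Hspa1a. All 10 intervals of the members lie inside the dashed lines of a 2-fold change, and 8 of them hold 0.

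Both water channels overlapped between the groups. Aqp1, which lets water pass through the membrane of endothelial, mesothelial and kidney tubule cells among others, read 4.21, 4.39, 4.25 and 4.38 in the control arrays and 4.24, 4.49, 4.05 and 4.14 in the others. NFAT5 replicate 2 was the highest array and replicate 3 the lowest. Its difference was -0.075 ± 0.11 (adjusted p = 0.840; exact permutation p = 0.543), and moved to -0.16 without NFAT5 replicate 2 and -0.014 without NFAT5 replicate 3. In the same arrays 0 of 11 endothelial markers were called (median -0.026), and their mean level ranged from 4.70 to 4.84 in the control arrays and from 4.68 to 4.88 in the others.

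Aqp5, the water channel of gland and lung epithelium, varied more. It read 3.73, 3.62, 4.04 and 4.03 in the control arrays and 3.55, 4.22, 4.10 and 3.17 in the arrays labelled NFAT5. The highest and the lowest array were both in the second group, whose SD was 0.49 against 0.21. A difference of -0.096 ± 0.22 (adjusted p = 0.909; exact permutation p = 0.800) turned to 0.10 without NFAT5 replicate 4, so this gene too has no settled direction. The 12 aquaporin genes measured had a median of -0.027 and 0 were called. Of these genes 10 were dimmer than the median gene, and the ends were Aqp11 (0.21) and Aqp6 (-0.20).

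Both chaperone genes overlapped between the groups. Hspa4l encodes OSP94, an Hsp110-type chaperone first described as induced by osmotic stress in the kidney. It read 6.36, 6.20, 6.26 and 6.47 in the control arrays and 6.34, 6.28, 6.33 and 6.19 in the others, fully interleaved. The difference was -0.037 ± 0.083 (adjusted p = 0.906; exact permutation p = 0.600). The 95% interval ran from -0.22 to 0.15, and the sign turned without control replicate 4 (0.012).

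Hspa1b encodes an inducible Hsp70. Its values were 6.45, 6.74, 6.97 and 6.70 against 6.86, 6.72, 6.61 and 7.16. Control replicate 1 was the lowest array and NFAT5 replicate 4 the highest. At 0.12 ± 0.14 the difference stayed within the spread (adjusted p = 0.804; exact permutation p = 0.457). It was 0.011 without NFAT5 replicate 4, 0.030 without control replicate 1 and 0.20 without control replicate 3. Hspa1a is a neighbouring, nearly identical copy that has its own probe set on the array, at 5.12, 5.57, 5.72 and 5.66 in the control arrays and 5.71, 5.40, 5.82 and 5.30 in the others, a difference of 0.042 ± 0.16. How far each probe set reads the other gene is not stated in the sources used, so the values of both are uncertain as measures of 1 gene.

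To show how close the pair is, the 250 bases before each start are printed with the differing bases in capitals (GRCm38.p6, minus strand, Hspa1b at chr17:34959239-34959488 and Hspa1a at chr17:34972157-34972406).
Hspa1b: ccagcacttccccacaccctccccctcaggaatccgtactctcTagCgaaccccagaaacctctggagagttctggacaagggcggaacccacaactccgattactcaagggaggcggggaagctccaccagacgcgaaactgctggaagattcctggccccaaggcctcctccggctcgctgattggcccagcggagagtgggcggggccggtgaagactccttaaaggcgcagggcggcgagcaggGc
Hspa1a: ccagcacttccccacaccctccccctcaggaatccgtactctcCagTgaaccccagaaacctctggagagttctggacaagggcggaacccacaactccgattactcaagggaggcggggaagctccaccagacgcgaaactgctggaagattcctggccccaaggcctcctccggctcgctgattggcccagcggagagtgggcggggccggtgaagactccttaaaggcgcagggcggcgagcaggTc
Of these bases 247 are the same (98.8%), and the 3 changes from Hspa1b to Hspa1a, counted from the first base shown, are T44C, C47T and G249T. Both hold the heat shock element letters GAANNTTC, found in 7.86% of all windows, and neither window holds the TonE core.

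Over the 21 measured genes of Hsp70 and Hsp110 chaperones and their partners 0 were called and the median was 0.042. Hyou1, a chaperone of the endoplasmic reticulum, had the highest value at 0.38 ± 0.072, with groups that did not overlap, and just missed the threshold (adjusted p = 0.0519). The testis-associated Hspa1l had the lowest at -0.20 (adjusted p = 0.559).

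Sgk1, the serum- and glucocorticoid-regulated kinase that acts on sodium channels and transporters and is induced when cells shrink, showed the largest difference of the set. It read 4.83, 5.08, 4.96 and 5.08 in the control arrays and 5.29, 5.46, 5.65 and 5.61 in the arrays labelled NFAT5. All arrays labelled NFAT5 lay above all control arrays. The means were 4.99 ± 0.12 and 5.50 ± 0.17 (SD, n = 4), a level 1.43 times that of the control arrays with a 95% interval from 1.22 to 1.68. The log2 difference of 0.52 ± 0.10 missed the threshold over all genes (adjusted p = 0.0662; exact permutation p = 0.0286, the smallest possible). Only 1.55% of all genes differed by as much in either direction.

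The call for Sgk1 changed with the genes tested and with the variance model. Its adjusted p was 0.0456 over the 18528 genes above the lower quartile of expression (1.48% called there), 0.0220 over genes above the median, and 0.0206 over all genes with a variance trend and robust estimation. It did not pass when arrays were weighted (0.0685). In none of the 8 fits that dropped 1 array was it called (adjusted p from 0.0617 to 0.181), and its difference stayed between 0.46 and 0.59. In the arrays where Sgk1 was higher, all 12 measured macrophage markers were above 0 (median 0.33) and 3 were called, Adgre1 (0.68), Laptm5 (0.53) and Cd68 (0.52). Over all genes 51.0% were above 0 (median 0.0042) and 0.777% were called. The mean of the macrophage markers ranged from 5.54 to 5.75 in the control arrays and from 5.94 to 6.13 in the arrays labelled NFAT5. Their part in the Sgk1 values was not tested. When 1 array was dropped, Adgre1 was called in all 8 fits, Laptm5 in 1 and Cd68 in 0.

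Of the 20 genes of Sgk kinases, their substrates and glucocorticoid-induced genes, Sgk1 included, 0 were called. The median of the list was -0.018, with 10 genes on either side of 0. Nr3c2, the mineralocorticoid receptor gene, was at the lower end at -0.50 ± 0.17 (adjusted p = 0.269). Chosen after their values were seen, the glucocorticoid-induced genes Fkbp5 and Tsc22d3 stood at 0.32 ± 0.16 and -0.11 ± 0.11, and the kinase gene Sgk3 at -0.28 ± 0.12, none past the threshold.

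The remaining lists covered other genes of the response. Among 21 measured genes of cell volume and ion transport 0 were called (median 0.018), with the potassium chloride cotransporter gene Slc12a7 at 0.38 and the scaffold gene Slc9a3r1 at -0.32 at the ends. Among 20 genes of tonicity signalling 0 were called (median -0.010), with the p38 kinase activator Map2k6 at 0.47 and the phosphatase Cdc25b at -0.48. A looser list held 21 genes linked elsewhere to NFAT5 or to hypertonicity outside osmolyte transport. Of these 5 were called, 3 higher and 2 lower, against 0.777% of all genes, around a median of -0.013. The list was chosen with earlier results of these data known, so its calls are no independent support. Nos2, the inducible nitric oxide synthase (1.09 ± 0.092), Ptgs2, an inducible cyclooxygenase (0.69 ± 0.073), and Tnf, a cytokine (0.58 ± 0.094), rose. S100a4, a calcium-binding protein, fell by 0.65 ± 0.11, and Adamts1, a secreted protease, fell by 0.65 ± 0.071. When each array was dropped in turn, S100a4 was called in 0, Tnf in 1 and the other 3 in all 8 fits. The macrophage markers were higher in the same arrays, as given above, and their part in the rise of Nos2, Ptgs2 and Tnf was not tested.

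**Figure D3:**
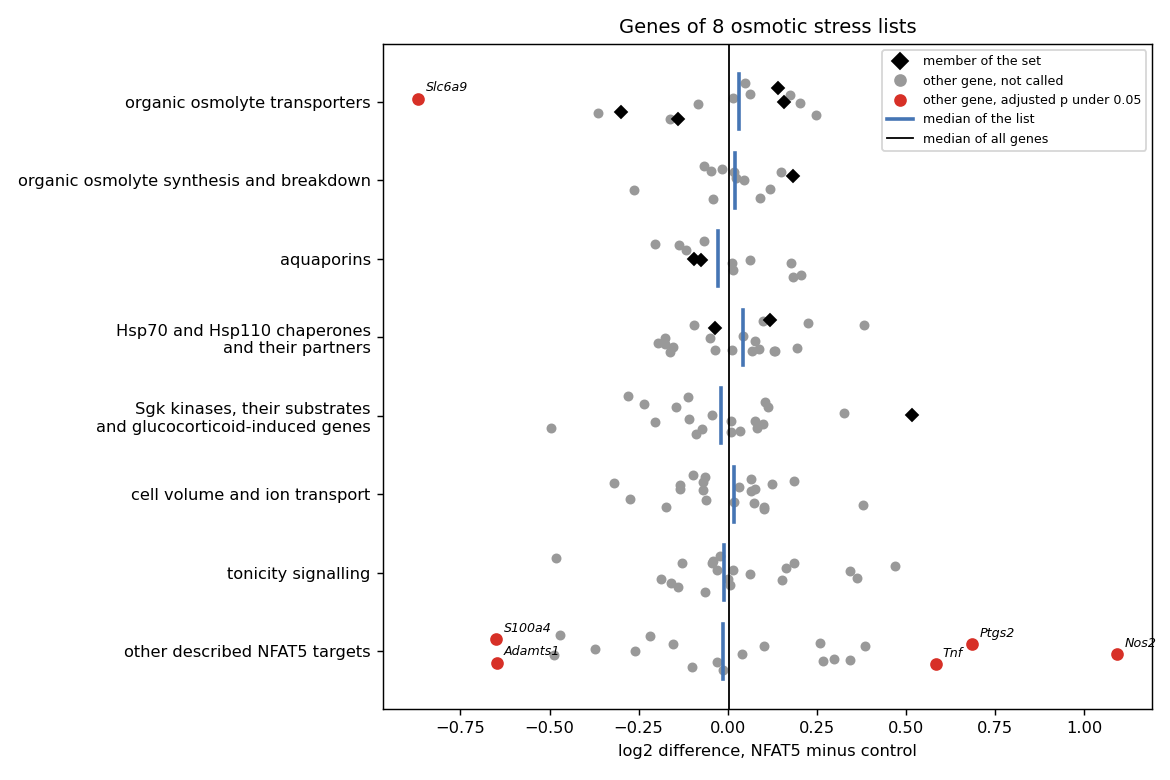
Log2 difference (horizontal axis) of every measured gene of 8 lists, with members of the set as diamonds, called genes in red and the median of each list as a blue bar. All members but Sgk1 lie between -0.30 and 0.18, the list medians lie near that of all genes (0.0042), and the 6 called genes are Slc6a9 and 5 of the looser NFAT5 list.

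The intervals give the range of change in these RMA values that the spread between the arrays allows. The arrays may be technical replicates, and RMA draws differences of dim probe sets such as that of Slc6a12 toward 0. For such genes the intervals do not bound the change of the transcript. All 10 members had a 95% interval within a 2-fold change in either direction. The upper bound was under a 1.5-fold rise for 8 members, and reached 1.69-fold for Slc5a3 and 1.68-fold for Sgk1. In both directions 7 members were within 1.5-fold, since the interval of Aqp5 reached down to 0.663 of the control level. Their median standard error was 0.10, beside 0.11 for all genes.

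Within the groups the members varied unequally. Slc5a3 spanned 1.38 log2 units over the 8 arrays and Aqp5 1.05, while Hspa4l spanned 0.28. Control replicate 3 was the highest or lowest array of its group for 7 of the 10 members, and lay 0.79 below its group's mean for Slc5a3. NFAT5 replicates 3 and 4 were at an end of their group for 6 members each. Such counts ran from 3 to 7 over the 8 arrays, and every group has a highest and a lowest array for each member. Over all genes the median size of such deviations was 0.098 for control replicate 3 and 0.11 for NFAT5 replicate 4, and 0.088 to 0.10 for the other arrays. With control replicate 3 and NFAT5 replicate 4 both left out, a choice made after seeing the data, 0 members were called.

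**Figure D4:**
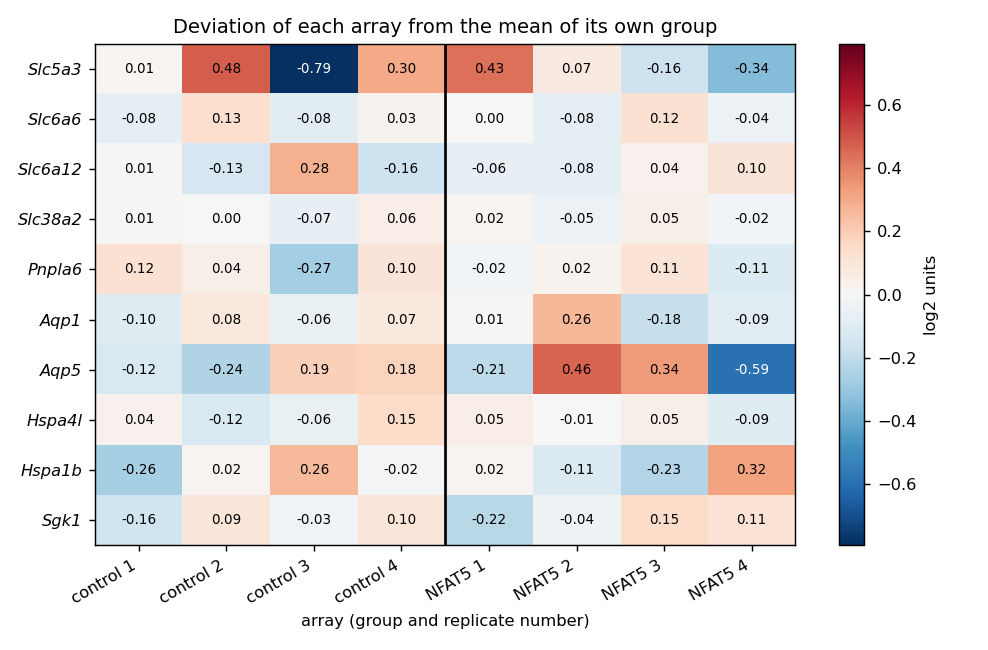
Deviation of each array (columns) from the mean of its own group, in log2 units, for the 10 members (rows). The darkest cells belong to Slc5a3 in control replicate 3 (-0.79) and Aqp5 in NFAT5 replicate 4 (-0.59), and the row of Slc38a2 is pale throughout.

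For Slc5a3 and Aqp5, the 2 most variable members, the genes with the most similar deviations were listed, by Pearson's r over the 8 arrays after each group's mean was taken off, among 12352 genes above the median level. For Slc5a3 they were Elf4 (r = 0.98), Samd4b (0.97) and Pcf11 (0.96). For Aqp5 they were Nelfcd (r = 0.98), Med22 (0.97) and Acer3 (0.97). All these values rest on the same 8 arrays and are given as a description. Among the other members above the median level, Pnpla6, also low in control replicate 3, had the highest r with Slc5a3 (0.70). The highest with Aqp5 was that of Hspa4l (r = 0.44). Opposite deviations were not ranked, and Slc6a12, below the median level, was not compared. In control replicate 3 Slc6a12 deviated by 0.28 where Slc5a3 deviated by -0.79.

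The labelled cell type was checked against its markers. Of its 10 measured markers 6 lay above the median gene, among them Acta2, Tagln, Myh11 and Cnn1, and 4 lay below it, Des (3.72), Mylk (3.52), Myocd (3.29) and Itga8 (2.98), against 3.73. Below the median gene were also 1 of 12 macrophage, 2 of 11 fibroblast or adventitial, 5 of 11 endothelial and 6 of 9 mesothelial or epithelial markers. By this check smooth muscle was thus not set apart from macrophages or fibroblasts. Acta2 read 12.06, 12.02, 12.04 and 12.06 in the control arrays and 11.81, 11.68, 11.81 and 11.67 in the others. Of the 10 smooth muscle markers 0 were called, with 5 above 0 and 5 below (median 0.0058). The groups did not overlap for 3 of them, Acta2 (-0.30), Mylk (-0.28) and Cnn1 (0.33), against 8.78% of all genes. Correlations between pairs of arrays ran from 0.989 to 0.993 across genes. Of the fibroblast or adventitial markers 1 of 11 was called, against 0.777% of all genes. It was Ly6c1 at -1.24 (median of the list -0.17, with 1 of 8 fits keeping the call). In this list 9 genes were below 0, while 51.0% of all genes were above 0. The groups did not overlap for 4 of the list, Ly6c1, Cd34 (-0.53), Lum (-0.45) and Dpt (-0.35), against 8.78% of all genes. Of the mesothelial or epithelial markers 0 of 9 were called (median -0.027).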

How the data were processed

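Total RNA of 8 samples was measured on single-colour Affymetrix arrays, 4 per group, placed by their titles. The authors deposited log2 values from RMA (per the submitters' processing notes, version unstated), and the probes' genome build is not given in the sources used here. RMA makes the distributions of the arrays equal, so a shift common to most genes cannot be seen. Rows were named through the supplied probe table, which gave 1 symbol for 24705 of 25428 probe sets, several for 0 and none for 723, and left 24704 genes. The members and lists were chosen with earlier results of these data known. Genes named are the members, Nfat5, and in each list the called genes (up to 4 by p) and both ends. Hspa1a and a few genes marked in the text were added after their values were seen. So were the other cell type markers named for their level or for groups that did not overlap. The called S100a4 is the low end of its list. All genes were fitted by lmFit and eBayes of limma 3.58.1 (R 4.3.3; two-sided, no covariates), with Benjamini-Hochberg adjustment over all genes; errors are standard errors of differences and SDs of means. Exact permutation tests used the 70 assignments of 4 against 4. They were also run for Nfat5, Hspa1a and the genes of all lists, and are printed for the 10 members only. Sequences and motif searches used RefSeq windows of GRCm38.p6. Of the 153 entries in 8 lists 141 were measured, besides 5 marker lists. The main limma fit was tested on simulated data, and the other steps were not. Alternatives were a replicate block, other normalisations, filters, variance models, array weights and arrays left out. The number of arrays limits the precision. Python 3.11.15 and matplotlib 3.10.9 drew the figures.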

Additional observations from a re-analysis of the deposited data

Results flagged for a closer look

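In 2 of 82 groups of 4 arrays, over 41 genes (the members, Nfat5, Hspa1a and the called or end genes of the lists and marker lists), 1 array stood far from the other 3, which chance does in about 1 group in 20. Both were NFAT5 replicate 2. For Chka it read 5.15 while the others lay between 5.06 and 5.07, and for Slc9a3r1 it read 7.54 while the others lay between 7.30 and 7.33. In both cases it was the array of its group nearest to the control arrays. None of the 10 members had such an array.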

How the results depend on the processing

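Of 159 member results under an alternative, 150 kept their direction and side of the threshold, 5 passed it and 4 turned. Those that passed were Sgk1 (0.52 throughout; filters at the lower quartile and the median, variance trend with robust estimation) and Slc38a2 (-0.30; the last 2 of these). The turned ones were Slc5a3 without control replicate 3 (-0.11), Hspa4l without control replicate 4 (0.012), and Aqp5 without NFAT5 replicate 4 (0.10) and without that array and control replicate 3 (0.16). With 1 array left out the ranges were -0.11 to 0.32 for Slc5a3, -0.078 to 0.012 for Hspa4l and -0.25 to 0.10 for Aqp5, and, with the sign kept, 0.011 to 0.20 for Hspa1b, -0.16 to -0.014 for Aqp1 and 0.088 to 0.24 for Slc6a12. The count of called members, 0, became 1 with the lower quartile filter, 2 with the median filter (9 members tested), 2 with trend and robust estimation and 2 at an unadjusted p under 0.05. It was 0 in every fit with an array left out, at an adjusted p under 0.01 and with the other alternatives run.

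The count of 6 other list genes became 12 with the median filter, 17 with trend and robust estimation, 1 without control replicate 3 and NFAT5 replicate 4, and 3 to 5 with 1 array left out (3 without control replicate 1, 2 or 4). Same-numbered arrays deviated together by correlations of 0.055, 0.051, -0.079 and -0.047, so the numbers were not taken to pair the samples. With the replicate block 1 list gene and 0 members were called, and over all genes 14 instead of 192. The count over all genes was 274 with the lower quartile filter, 497 with the median filter, 781 with trend and robust estimation, 30 without those 2 arrays and 56 to 88 with 1 array left out. The cause of these moves was not tested. Background correction and array batches could not be varied from the deposited values.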
